A study of Macaca mulatta with 2 samples.

Results

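The genes described here are 36 inhibitors of the cell cycle and targets of p53, taken from the 21495 gene names of a human oligonucleotide array by matching their symbols. They fall into 10 genes of cell cycle exit, namely the CDK inhibitors CDKN1A, CDKN1B, CDKN1C, CDKN2A, CDKN2B, CDKN2C and CDKN2D with the pocket proteins RB1, RBL1 and RBL2, and 26 p53 targets and stress genes. RNA came from the rhesus macaque Macaca mulatta, from primary cultures of Sertoli cells, which line the seminiferous tubule and nurse its germ cells. The pubertal culture was made from testes of males aged 18 to 22 months, whose puberty was induced with pulsed gonadotropin-releasing hormone (0.15 µg/min over 2 min, repeated at 3 h intervals, over 4 to 5 weeks). The infant culture was made from testes of males under 3 months of age that are not described as having had this hormone. Both cultures were exposed to 5 ng/ml follicle-stimulating hormone with 100 nM testosterone over 12 h, so every value below is from hormone-treated cells. Each culture was hybridised to 1 array, and the labels do not say how many animals a culture came from.

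A cell leaves the cycle in G1 when cyclin-dependent kinases (CDKs) no longer phosphorylate the pocket proteins, which then hold E2F factors on their target genes. INK4 proteins (CDKN2A to CDKN2D) bind CDK4 and CDK6, while Cip/Kip proteins (CDKN1A to CDKN1C) bind complexes of cyclin with CDK2. In mice, Sertoli cells divide early in life and then stop, and mice that lack Cdkn1b have more of them. Whether the macaque cells of either culture had stopped dividing was not tested. The transcription factor p53 induces CDKN1A together with genes of growth arrest, DNA repair and cell death, and induces its own antagonist MDM2.

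A level is the log2 signal of a gene relative to the 75th percentile of its array, and a difference is the pubertal level minus the infant level. With 1 array in each group there was no replicate, so no test was made and no p-value is given. The error after a difference comes from the scanner's error model, which takes in the array alone and leaves out the culture. For a gene with several probes it treats them as independent. It therefore shrinks as probes are added and leaves out any disagreement between them. Of the 36 genes, 31 were measured, meaning that at least 1 probe was well above background on both arrays. SFN was well above background on the infant array only, and APAF1, PMAIP1, RRM2B and POLH on neither. Of the 31 genes, 18 rested on 1 probe, and levels of different probes are not compared, since human probes match monkey transcripts unequally.

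Over the 14243 genes measured, 7.32% were at least 2-fold higher in the pubertal culture and 6.32% at least 2-fold lower, with a median difference of -0.06. Levels were correlated across these genes with r = 0.956, though genes are not independent replicates. Scaling on 8 spike-in probes in place of the 75th percentile raised every difference by 0.997, so each direction below is one relative to the bulk of the genes. Scaling on the median of each array lowered every difference by 0.16. All 9 Sertoli cell markers (SOX9, WT1, GATA4, FSHR, AMH, CLU, DMRT1, INHA and CLDN11) were well above background on both arrays, with a median difference of 0.42. They were not alike, with 7 above 0 and 2 below. AMH at 3.28 and DMRT1 at 2.11 were past 2-fold, and INHA at -0.52 and GATA4 at -0.13 lay below 0. SOX9, measured by 1 probe, gave the list median of 0.42, and a probe of SOX9 lay in a disturbed area of the arrays. Markers of other cell types differed as well. Of 8 germ cell markers, DDX4, MAGEA4, SYCP3 and TEX15 passed background in the pubertal culture only, DAZL, STK31 and MAEL were 4.72, 4.71 and 3.37 higher there on the log2 scale, and UCHL1 had a difference of -1.52. The 5 markers of peritubular myoid cells had a median difference of 2.24. Of 5 macrophage markers, the 4 measured on both arrays had a median of 1.33. CD163 at 3.09, CSF1R at 2.07 and CD14 at 0.60 lay above 0, and CD68 at -0.94 below it. AIF1 was well above background on the pubertal array only. Of 5 endothelial markers, PECAM1 and VWF were higher in the pubertal culture, TEK was well above background there only, and CDH5 and KDR on neither array. Of 6 Leydig cell markers, the 5 measured had a median of -1.37, with STAR at -4.24, CYP17A1 at -4.21 and CYP11A1 at -1.37 below 0, HSD3B2 at 0.25 and INSL3 at 0.41 above it, and LHCGR on neither array. For each list, the signals of the genes measured on both arrays were added and the log2 of the sum was taken. Genes that passed background on 1 array only were left out, and probes that match unequally weigh unequally in such a sum. In the pubertal and the infant culture the sum was 7.75 and 7.24 for Sertoli cells, and 4.17 and 5.11 for germ cells. It was 6.71 and 5.88 for myoid cells, and 2.02 and -0.27 for macrophages. For endothelium it was 0.59 and -0.55, and for Leydig cells 5.51 and 7.24. The germ cell sum is mostly that of UCHL1, at 3.58 in the pubertal and 5.10 in the infant culture, while the other 7 germ cell markers were higher in the pubertal culture or passed background there only. The part of these other cells in the results below was not tested, and in a bulk culture fewer cells of a type and less RNA per cell cannot be told apart.

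Past 2-fold, CDKN1B was higher in the pubertal culture, and the p53 targets FAS and CCNG1 were lower. The repair gene XPC and the p53 antagonist MDM2 came next, at 1.88-fold higher and 1.90-fold lower. The remaining CDK inhibitors all lay within 1.5-fold. The p53 targets ran in both directions, with 33.3% above 0, against 45.8% of all genes.

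CDKN1B, which encodes p27, was the only CDK inhibitor at least 2-fold different. Its level was -0.07 in the pubertal culture, against -1.102 in the infant culture, a difference of 1.03 ± 0.16 or 2.05-fold higher. Both of its probes were higher in the pubertal culture, one with an intensity of 1725 against 732 and a difference of 1.15, the other with 87.1 against 43.3 and a difference of 0.92. The dimmer probe, of human design as all probes here, is shown because its signal was low and its difference still lay within its error of the brighter one.
CDKN1B probe 1: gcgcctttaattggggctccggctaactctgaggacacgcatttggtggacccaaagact
Across 12 other ways of processing the arrays, spike-in scaling left aside, the difference of CDKN1B lay between 0.80 and 1.15, so it stood close to the 2-fold limit on either side of it.

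The other Cip/Kip genes were not higher beyond their errors. CDKN1A, which encodes p21 and is the best known p53 target among CDK inhibitors, had a level of 2.61 in the pubertal culture, against 3.16 in the infant culture, a difference of -0.55 ± 0.14. Its probes gave -0.67 and -0.43, and the second of them lay in a disturbed area of the arrays. CDKN1C, which encodes p57 and is an imprinted gene, differed by 0.07 ± 0.20, with levels of 1.15 in the pubertal and 1.08 in the infant culture, less than its error.

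The INK4 genes differed little. CDKN2D (p19) had a level of 2.81 in the pubertal culture, against 2.49 in the infant culture, a difference of 0.31 ± 0.20. CDKN2C (p18) had 0.82 and 1.06 in the pubertal and infant cultures, a difference of -0.24 ± 0.20. These are both within 1.5-fold and run in opposite directions. CDKN2A, the gene of p16 and ARF, had levels of -2.23 in the pubertal and -2.22 in the infant culture by its 1 detected probe, and its difference of -0.004 ± 0.23 took either sign across the ways of processing. CDKN2B (p15) was dim, at -3.66 in the pubertal and -3.55 in the infant culture, with a difference of -0.11 ± 0.33, or -1.47 with no filter on dim probes. A second CDKN2B probe was well above background on the infant array only, where it was at least 1.76-fold higher than in the pubertal culture, so the probes of this gene do not give one value. The probes of CDKN2BAS, the antisense transcript beside CDKN2B, were not well above background on either array.

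Of the pocket proteins, RB1 and RBL2 were higher in the pubertal culture and RBL1 was lower, though above 0 under spike-in scaling. RB1, the retinoblastoma protein gene, had a level of 1.101 in the pubertal culture, against 0.55 in the infant culture, a difference of 0.55 ± 0.18, with probes at 0.67 and 0.43. RBL2, which encodes the p130 protein that joins E2F4 in resting cells, had -0.86 in the pubertal and -1.51 in the infant culture, a difference of 0.65 ± 0.15 or 1.57-fold higher, with probes at 0.85 and 0.45. RBL1, which encodes p107 and is commonly found in dividing cells, had -3.19 in the pubertal and -2.72 in the infant culture, a difference of -0.47 ± 0.28 by its 1 detected probe. RBL1 and RBL2 are related genes, and the RBL1 probe and 1 of the RBL2 probes resemble each other in sequence, though neither was mapped here. Both are therefore shown, with the 33 of 60 bases that are identical in capitals when the RBL2 probe is shifted by 3 bases.
RBL1 probe 1: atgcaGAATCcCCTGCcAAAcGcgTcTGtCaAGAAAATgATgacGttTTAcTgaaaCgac
RBL2 probe 1: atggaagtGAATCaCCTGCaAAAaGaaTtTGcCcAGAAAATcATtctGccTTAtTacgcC
The RBL1 probe was 1.38-fold lower and this RBL2 probe 1.80-fold higher in the pubertal culture. Whether either probe also reads the transcript of the other gene was not tested.

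**Figure D1:**
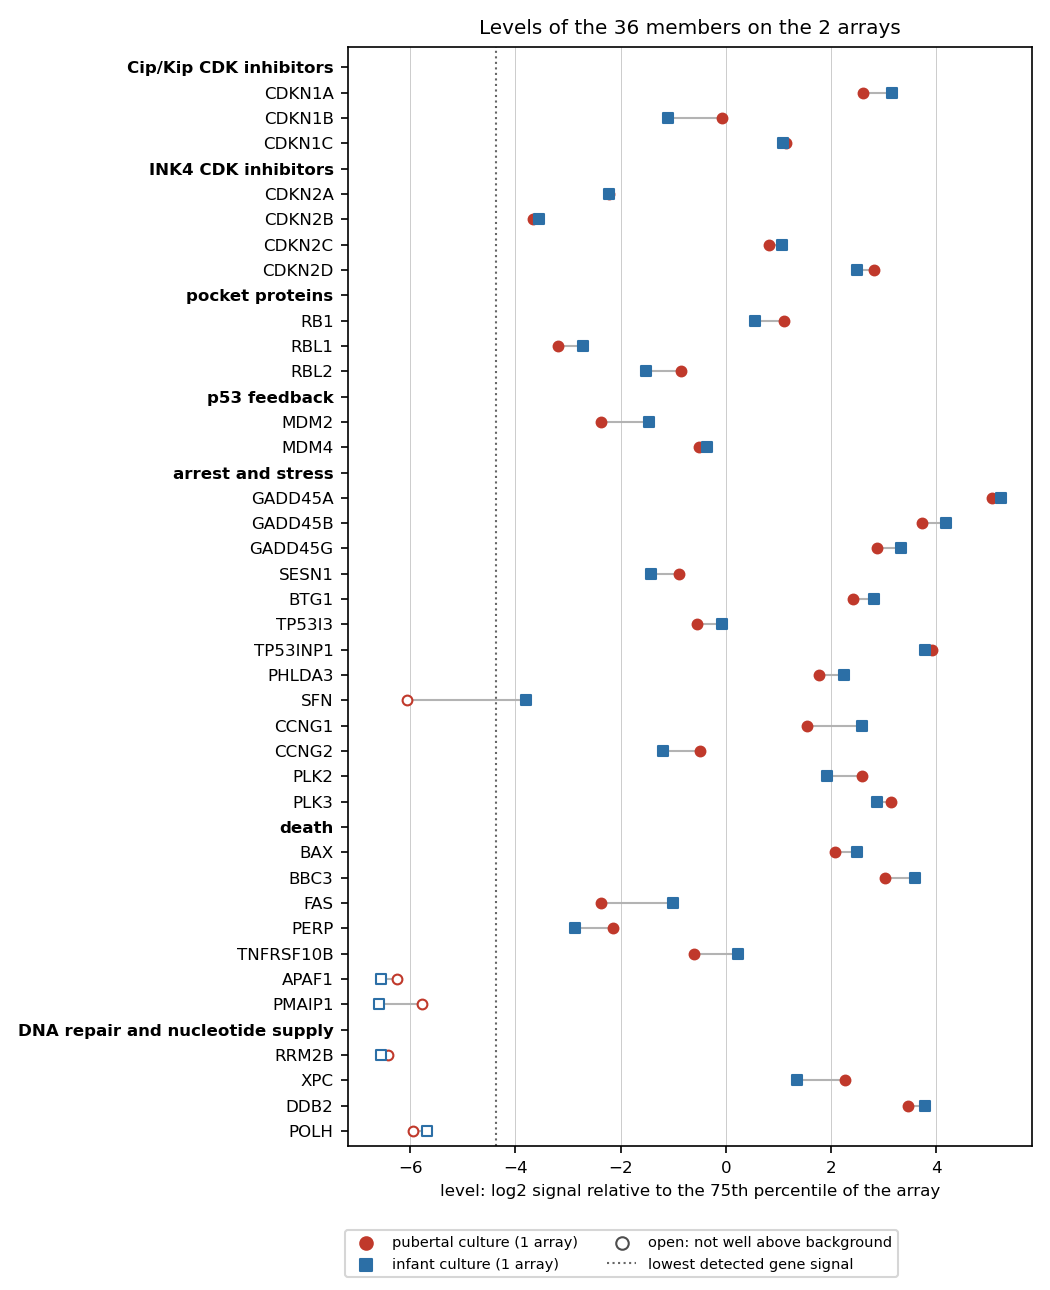
Levels of the 36 genes by role in the pubertal culture (circles) and the infant culture (squares), as log2 signal over the array's 75th percentile, with open symbols for signals not well above background. FAS, CCNG1 and MDM2 lie to the left in the pubertal culture and CDKN1B, XPC and PERP to the right, with differences of -1.37, -1.05, -0.92, 1.03, 0.91 and 0.74.

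Among the p53 targets, the feedback genes were lower in the pubertal culture, except under spike-in scaling. MDM2, the ubiquitin ligase that degrades p53, had an intensity of 78.4 in pubertal cells, against 139.8 in infant cells, a difference of -0.92 ± 0.22 or 1.90-fold lower by 1 of its 2 probes. MDM4, a partner of MDM2 that blocks p53 and is not a firm p53 target, differed by -0.15 ± 0.15, with levels of -0.51 in the pubertal and -0.35 in the infant culture. The MDM4 difference was about the size of its error.

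The 12 measured genes of arrest and stress split, with 5 higher and 7 lower in the pubertal culture and a median difference of -0.29. The share above 0 was 41.7%, near the 45.8% of all genes. CCNG1, the gene of cyclin G1, a p53 target that acts on MDM2 through a phosphatase, had an intensity of 1188 in pubertal cells, against 2313 in infant cells. Its difference was -1.05 ± 0.20, or 2.07-fold lower, and it lay between -1.21 and -0.94 across the 12 other ways of processing. Its relative CCNG2, which FOXO factors induce in resting cells, ran the other way, with a level of -0.48 in the pubertal and -1.19 in the infant culture, a difference of 0.70 ± 0.15, and probes at 0.50 and 0.91.

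The GADD45 genes, stress sensors that act on p38 and JNK kinases and on DNA repair, were all below 0 as reported, but above 0 under spike-in scaling, as was GADD45A under quantile and loess normalization. GADD45B had a level of 3.72 in the pubertal and 4.18 in the infant culture, a difference of -0.46 ± 0.14 with probes at -0.47 and -0.45. GADD45G had 2.88 in the pubertal and 3.33 in the infant culture, a difference of -0.45 ± 0.20. GADD45A, the member of this family that p53 induces most directly, differed by only -0.17 ± 0.20, with 5.06 in the pubertal and 5.23 in the infant culture.

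PHLDA3, which restrains AKT, had a level of 1.77 in the pubertal and 2.25 in the infant culture, a difference of -0.48 ± 0.20. TP53I3, a quinone oxidoreductase gene, had -0.55 in the pubertal and -0.08 in the infant culture, a difference of -0.47 ± 0.21. BTG1, an antiproliferative gene, had 2.42 in the pubertal and 2.82 in the infant culture, a difference of -0.41 ± 0.20. These 3 genes lay within 1.5-fold, each below 0 by more than its error. SFN, the gene of 14-3-3 sigma, which holds cyclin B and its kinase in the cytoplasm, was at least 1.40-fold lower in the pubertal culture.

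PLK2, a polo-like kinase gene, had a level of 2.59 in the pubertal and 1.92 in the infant culture, a difference of 0.66 ± 0.20. SESN1, which encodes a sestrin that dampens mTORC1, had -0.89 in the pubertal and -1.43 in the infant culture, a difference of 0.54 ± 0.16 with probes at 0.37 and 0.72. PLK3 differed by 0.28 ± 0.12, with 3.15 in the pubertal and 2.87 in the infant culture, from 3 probes that overlap in sequence and are not independent readings. TP53INP1, which takes part in autophagy, differed by 0.12 ± 0.20, with 3.91 in the pubertal and 3.79 in the infant culture. Of these 4 genes, which were higher in the pubertal culture, PLK2 alone was past 1.5-fold, at 1.59-fold.

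**Figure D2:**
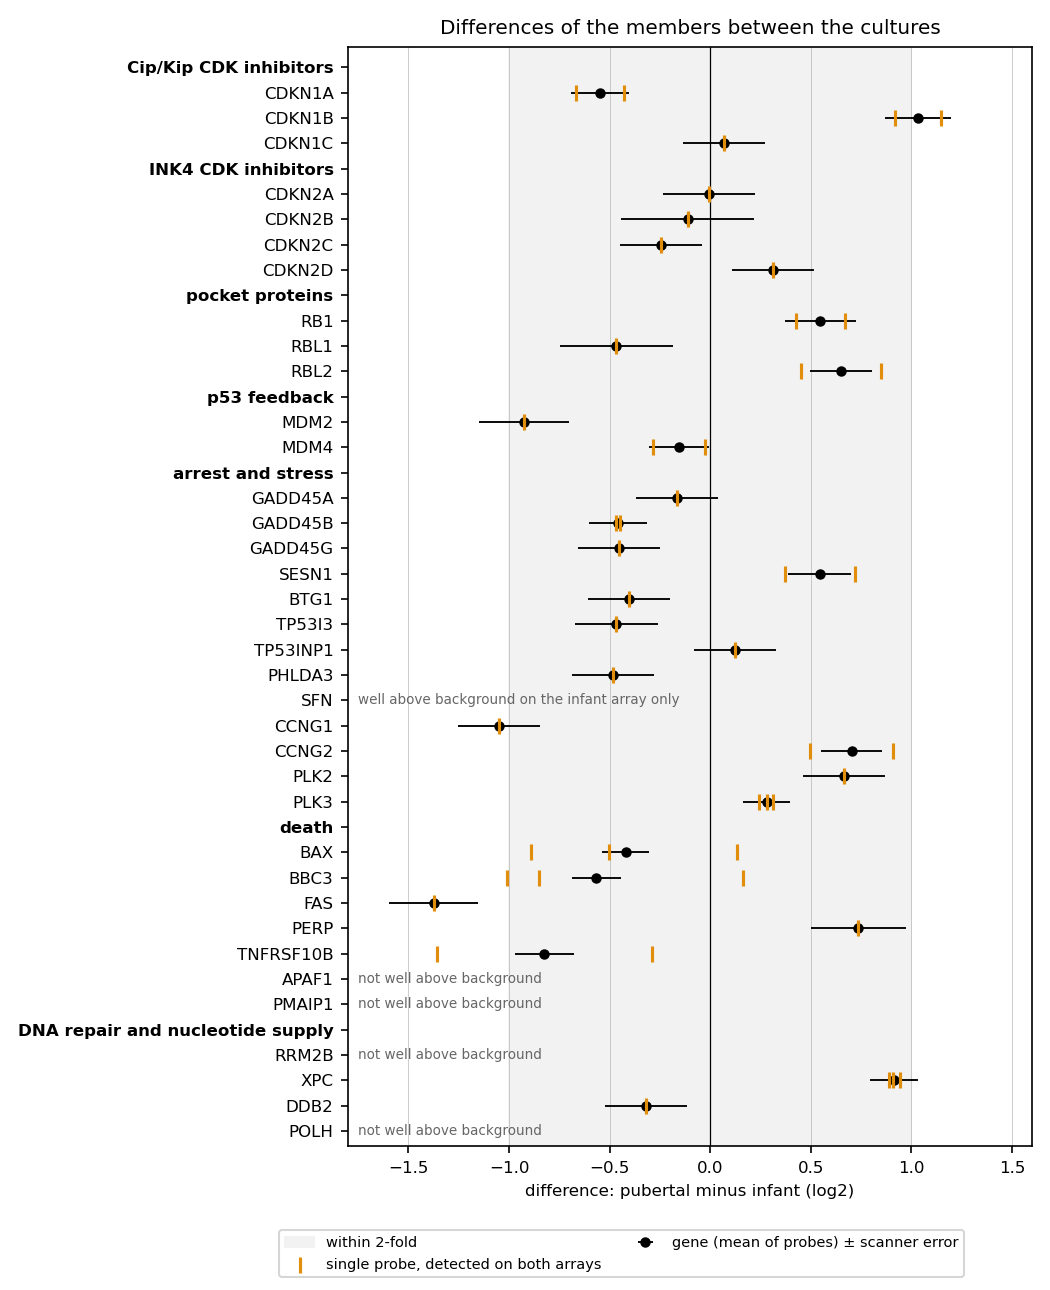
Difference of each gene between the pubertal and the infant culture on the log2 scale, as the mean of its probes (black, with the scanner error) and as single probes (orange ticks), with the range within 2-fold shaded. CDKN1B at 1.03 is the only gene to the right of the shading and FAS at -1.37 and CCNG1 at -1.05 the only ones to its left, while the probes of BAX and BBC3 lie on both sides of 0.

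Of the 5 death genes measured, 4 were lower in the pubertal culture, and over all 14243 genes 7721 were lower there. Among the 4, BAX and BBC3 had probes on both sides of 0, and FAS alone stayed lower under spike-in scaling. FAS, a death receptor gene, had an intensity of 78.4 in pubertal cells, against 191.1 in infant cells, a difference of -1.37 ± 0.22 or 2.59-fold lower. TNFRSF10B, which encodes a receptor of the death ligand TRAIL, had a level of -0.60 in the pubertal and 0.23 in the infant culture, a difference of -0.82 ± 0.15. The probes of TNFRSF10B both lay below 0 but far apart, at -1.36 and -0.29. PERP, a membrane protein of desmosomes that p53 and p63 induce, ran the other way, with -2.14 in the pubertal and -2.87 in the infant culture, a difference of 0.74 ± 0.24. APAF1, the core of the apoptosome, and PMAIP1, the gene of the BH3-only protein NOXA, gave no measured difference.

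BAX, which opens the outer mitochondrial membrane, and BBC3, which encodes the BH3-only protein PUMA, each had 3 probes that did not agree in sign. BBC3 had a mean level of 3.03 in the pubertal and 3.59 in the infant culture, a difference of -0.57 ± 0.12. The standard deviation over its 3 probes was 0.64, which that error leaves out. One probe gave -1.01, another -0.85 with an intensity of 89.3 in pubertal and 151.6 in infant cells, and the brightest 0.16 with 121275 in pubertal and 101716 in infant cells. The brightest and the dimmest probe are shown because their base content differs, 85% G and C against 60%, and the capitals mark the longest run of G and C in each, 9 and 6 bases.
BBC3 probe 2: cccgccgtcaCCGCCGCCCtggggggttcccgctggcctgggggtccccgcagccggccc
BBC3 probe 3: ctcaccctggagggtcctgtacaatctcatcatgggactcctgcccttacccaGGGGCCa
BAX had a mean level of 2.07 in the pubertal and 2.49 in the infant culture, a difference of -0.42 ± 0.12. The standard deviation over its 3 probes was 0.52. Its probe of 83.3% G and C gave 0.13, and the others -0.89 and -0.50. Over all 51 detected probes of the array with at least 80% G and C, these of BBC3 and BAX included, the median difference was 0.16. Of the 51 probes 70.6% lay above 0, against 45.3% of all 20528 detected probes. The 1076 probes of 60% to below 80% had a median of -0.02, with 47.3% above 0. The part of base content in the probe differences was not tested. Without such probes BBC3 differed by -0.93 and BAX by -0.70, a setting chosen after these values were seen.

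The repair genes did not share a direction. XPC, which recognises damage in nucleotide excision repair, had a level of 2.26 in the pubertal and 1.35 in the infant culture, a difference of 0.91 ± 0.12 or 1.88-fold higher. Its 3 probes gave 0.94, 0.89 and 0.91, and the last 2 of these share 59 bases. DDB2, a partner of XPC in finding ultraviolet damage, had 3.46 in the pubertal and 3.78 in the infant culture, a difference of -0.32 ± 0.20. RRM2B, a p53-induced subunit of ribonucleotide reductase, and POLH, a polymerase that copies past damage, were not well above background.

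Set side by side, the genes of cell cycle exit had a median difference of 0.03 and the p53 targets one of -0.41, against -0.06 over all genes. Of the 10 genes of cell cycle exit, 5 lay above 0 and 5 below, with 1 at least 2-fold higher and 0 lower. Of the 21 p53 targets and stress genes measured, 7 lay above 0 and 14 below, with 0 at least 2-fold higher and 2 lower. Without MDM4, BTG1, GADD45B, GADD45G and CCNG2, 16 of them remained, with a median of -0.37, 6 above 0 and 10 below. Over all genes 45.8% lay above 0 and 13.6% were past 2-fold in either direction, so the counts past 2-fold, 3 of 31 members in all, are near the background. At 1.5-fold, 15% of all genes were higher and 16.8% lower, and the p53 targets had 4 in each direction. The spread within each class exceeded the distance between them: the quartiles of the p53 targets were -0.48 and 0.28, those of the genes of cell cycle exit -0.21 and 0.49, and the medians were 0.44 apart. That distance lay between 0.31 and 0.51 over 13 other ways of processing, while both medians were above 0 under spike-in scaling, at 1.03 and 0.59. CDKN1A belongs to both classes, and with it among the p53 targets the medians were 0.07 and -0.41.

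**Figure D3:**
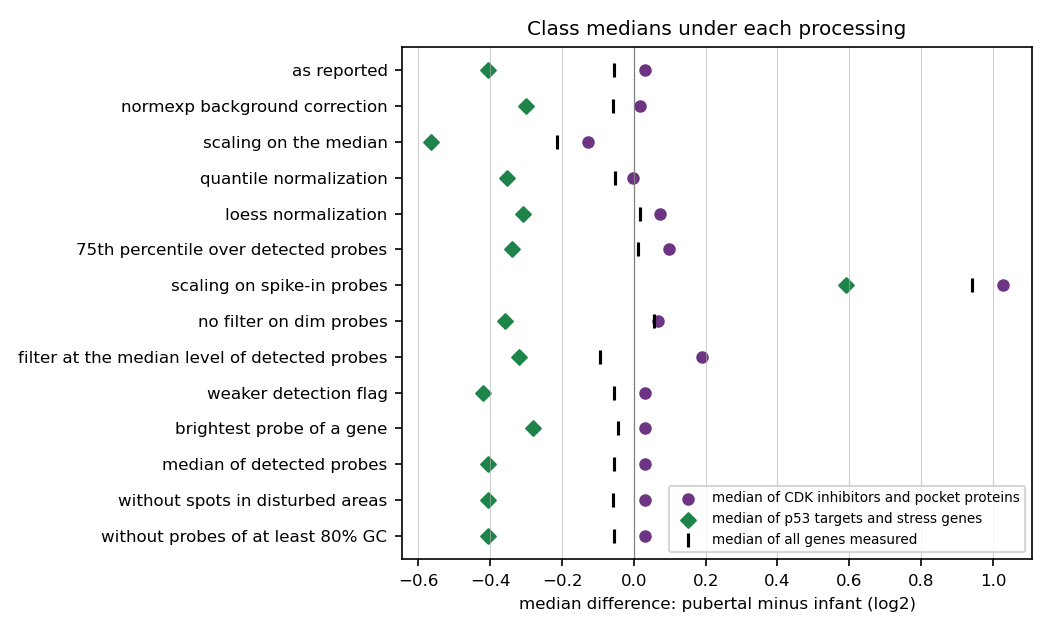
Median difference between the pubertal and the infant culture (log2) of the genes of cell cycle exit (circles), the p53 targets (diamonds) and all genes measured (ticks) under each way of processing. The p53 targets lie to the left of the genes of cell cycle exit in every row, and spike-in scaling moves all 3 medians to the right of 0.

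Genes around these pathways were read from lists of related genes, and PPM1D, BCL2L1 and BID each stand in more than 1 list. Of 13 regulators and relatives of p53, 12 were measured, with a median difference of 0.10 and 0 past 2-fold. TP63, a relative of p53 found in oocytes and epithelia, was well above background on the pubertal array only, at least 7.62-fold higher. A further list of p53 targets, 22 measured of 29, had a median of -0.24, with 1 at least 2-fold higher and 4 lower, against 7.32% and 6.32% of all genes. Of the 22 genes 31.8% lay above 0, against 45.8% of all genes, which is given as a description with no test. GDF15, a secreted stress cytokine, had 1.72 in the pubertal and 5.43 in the infant culture, a difference of -3.71 ± 0.20. DUSP1, a phosphatase gene that also answers to growth factors and stress, differed by -2.86 ± 0.20, with 2.82 in the pubertal and 5.67 in the infant culture. Next came STEAP3, an iron reductase gene, at -1.31 ± 0.35, and SPATA18, a mitochondrial quality gene, at 1.11 ± 0.25. The remaining gene past 2-fold in this list, named after its value was seen, was TNFRSF10A, the other TRAIL death receptor, at -1.05 ± 0.21.

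The kinases that the CDK inhibitors act on were read as well. CDK6, a partner of the D cyclins, had a level of 1.13 in the pubertal and 2.23 in the infant culture, a difference of -1.097 ± 0.14 with probes at -1.36 and -0.83. CDK4, its relative, differed by 0.24 ± 0.20, and CDK2 did not pass background in either culture. Of the D cyclins, CCND2 differed by -0.76 ± 0.12, with probes that ranged between -1.36 and -0.04. CCND1 differed by -0.18 ± 0.12 and CCND3 by 0.14 ± 0.15. CCND2 and CCND3 each had at least 1 probe in a disturbed area of the arrays. Of 11 genes of G1 cyclins and kinases 8 were measured, with a median of 0.05, and of these 8 CDK6 alone was past 2-fold. CCNE2, the second cyclin E gene, passed background in the pubertal culture only and was at least 4.15-fold higher there. Of 15 E2F and DREAM complex genes 13 were measured, with a median of -0.12, and E2F3, an activator of S phase genes, alone past 2-fold at -1.20 ± 0.20.

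Proliferation markers, which dividing cells express, did not stand apart from the other genes by their median. Of 22 markers 20 were measured, with a median of -0.17 and 8 of them, or 40%, above 0, against -0.06 and 45.8% over all genes. TYMS, thymidylate synthase, had a level of -3.36 in the pubertal and -2.17 in the infant culture, a difference of -1.19 ± 0.27. RRM2, the S phase subunit of ribonucleotide reductase, had -1.14 in the pubertal and -0.07 in the infant culture, a difference of -1.07 ± 0.15. These were the only markers past 2-fold, and MKI67 and MCM3 were not well above background on either array.

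**Figure D4:**
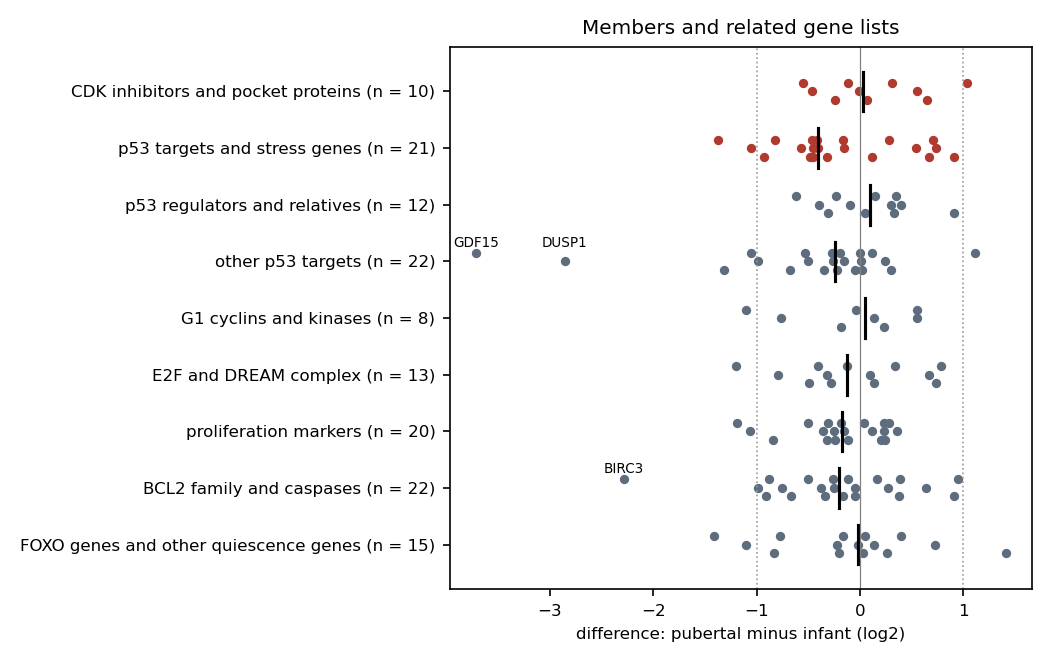
Difference between the pubertal and the infant culture (log2) of each measured gene (points) and the median of its list (bars), for the 2 classes of members (red) and 7 lists of related genes (grey), with dotted lines at 2-fold. GDF15, DUSP1 and BIRC3 lie farthest to the left, at -3.71, -2.86 and -2.29, and every list median lies between -0.41 and 0.10.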

How the data were processed

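Signals were deposited as spot intensity values of 2 one-colour Agilent arrays of human design (hg18), from Agilent Feature Extraction, version 10.5.1.1 in the submitters' processing notes. The processed intensity had its background subtracted by the authors, per the file headers, which record no scaling between arrays. Each array had 52857 spots, 51538 of them for genes, of which 54.9% (pubertal) and 54.8% (infant) were well above background and 0 were saturated. The number of arrays limits the precision.

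Outlier gene spots (96 pubertal, 91 infant) were left out. The log2 of the deposited intensity was taken and the 75th percentile over gene spots subtracted (406.7 pubertal, 382.4 infant). Spots of a probe were averaged, and a probe counted as detected with at least 50% of its spots well above background. Probes detected on both arrays were averaged per gene. A gene well above background on 1 array has a bound against the higher of its own signal and the lowest detected signal on the dim array (-4.29 pubertal, -4.36 infant). Disturbed areas (833 spots, 1.58%) were found from neighbouring spots. Probe positions were not used.

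The members and lists were chosen with earlier results of these data known. All 36 members are named, all of which are in the macaque gene table; of related lists, up to 4 genes past 2-fold are named by rule, and the D cyclins, CDK2, CDK4 and CDK6 whatever their values; other genes are marked as named after their values were seen. Of the related genes 2 are not reported here and were left out of their lists. No test was made. Alternatives were normexp (offset 50), median, quantile, loess (span 0.3), detected-probe and spike-in scaling, other filters, flags and probe rules, and thresholds of 1.5- and 4-fold. Scripts in Python 3.11.15 (numpy 2.4.6, pandas 2.3.3, statsmodels 0.14.6) and R 4.3.3 (limma 3.58.1) were tested on simulated data.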

Additional observations from a re-analysis of the deposited data

How the results depend on the processing

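Members at least 2-fold higher (1 as reported) numbered 0 under normexp, median scaling, quantile normalization and a 4-fold limit, 6 at 1.5-fold and 12 under spike-in scaling. Members at least 2-fold lower (2 as reported) numbered 0 under normexp, spike-in scaling and a 4-fold limit, 1 under loess, the percentile over detected probes and a filter at the median level, and 4 without a filter or at 1.5-fold. The medians moved under spike-in scaling, to 1.03 for the genes of cell cycle exit and 0.59 for the p53 targets, and the cause was not tested. The p53 median was below 0 under the 12 other alternatives, and that of cell cycle exit was -0.13 under median scaling and -0.003 under quantile normalization. Over those 12, or 11 for the 10 members that the filter at the median level drops, 25 of 31 members kept their sign, and BAX, BBC3, CDKN1C, CDKN2A, GADD45A and TP53INP1 did not. Of the 31 members, FAS at -0.38 and CCNG1 at -0.05 alone stayed below 0 under spike-in scaling. CCNG1 then lay within its error of 0.20 from 0. This scaling adds 0.997 to every difference, so these signs are not a separate reading of the 2 genes.

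Over all genes, those at least 2-fold higher and lower numbered 1042 and 900 as reported (53.7% higher), 553 and 568 under normexp, 785 and 1305 under median scaling (37.6% higher), 6495 and 123 under spike-in scaling (98.1% higher), 2081 and 1485 without a filter, 376 and 498 with the filter at the median level (43.0% higher), and 1710 and 1363 with a weaker detection flag. No paired analysis was possible because each group has 1 array and the replicate numbers were given in accession order. Age, hormone pulses, animal and culture cannot be told apart, and dim genes such as CDKN2B carry the largest errors.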

Other observations

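The caspases and the BCL2 family beyond BAX, BBC3 and PMAIP1, the wider machinery of cell death, were not described above. Of 23 such genes 22 were measured, with a median difference of -0.21, 7 above 0 and 15 below. The share above 0 was 31.8%, against 45.8% of all genes, which is given with no test. BIRC3, an inhibitor of apoptosis that NF-kB induces, had a level of 1.07 in the pubertal and 3.36 in the infant culture, a difference of -2.29 ± 0.20, and was the only one past 2-fold. BID, which links death receptors to mitochondria, was well above background on the infant array only and at least 1.49-fold lower in the pubertal culture. Genes named after their values were seen ran both ways. The BH3-only genes BMF and HRK differed by 0.95 ± 0.22 and 0.91 ± 0.14, and the 2 probes of HRK lay far apart, at 0.27 and 1.55. BAD, of the same group, differed by -0.99 ± 0.20 and BAK1, a pore-forming relative of BAX, by -0.76 ± 0.20.

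FOXO factors, which induce CDKN1B, CCNG2 and SESN1 in resting cells, did not differ in one direction. Of 16 FOXO and other quiescence genes 15 were measured, with a median of -0.01. FOXO4 had a level of -2.70 in the pubertal and -1.29 in the infant culture, a difference of -1.41 ± 0.23, and KLF9 one of -1.11 ± 0.20. KLF11, a TGF-beta induced repressor, had -0.82 in the pubertal and -2.23 in the infant culture, a difference of 1.41 ± 0.16. FOXO1 and FOXO3, named after their values were seen, differed by 0.73 ± 0.14 and -0.78 ± 0.15. E2F1, an activator like E2F3, differed by 0.73 ± 0.20, also named after its value was seen.

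CCNE1, the other cyclin E gene beside CCNE2, differed by 0.55 ± 0.20 and was named after its value was seen.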
